A study of Mus musculus with 127 samples.

Results

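Cell17 is 1 nucleus of a mouse embryonic stem cell that was cut into 23 serial slices, and it is described here from the windows of the genome that could be placed along its cutting axis. Its members are the 23 nuclear profiles labelled Cell17, of 122 profiles from 10 nuclei in all, beside which the series holds 1 negative and 4 positive controls. The profiles are numbered between NP600 and NP642 in the set labelled B16F, and their positions are deposited as a pair of files, called file 0 and file 1. Only windows on the 19 autosomes were used, and the other 9 nuclei served as comparison.

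Sequential genome architecture mapping cuts a nucleus into thin serial sections, amplifies and sequences the DNA of each section, and so orders the genome along 1 axis without ligation of contacts. All nuclei came from F123 cells, an embryonic stem cell line of strain CAST x 129. The cells grew with LIF on feeder fibroblasts and were then passaged without feeders, and they received no treatment. Every autosome is present in a maternal and a paternal copy in such a cell, and the sources used here do not say whether the pair of files separates them. During interphase each chromosome folds into its own territory, a compact and irregular volume that touches and partly mixes with its neighbours. A slice therefore crosses several territories at once, and 2 chromosomes that share many slices need not touch, because they can lie on opposite sides of the same section. In embryonic stem cells the chromatin is known to be comparatively open, with the pluripotency genes active and most lineage genes silent.

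File 0 placed 66020 autosomal windows of 10 kb and file 1 placed 71273, which is 26.8% and 29.0% of the autosomal windows up to the last one located. Together the files held 137293 entries, each with 1 position. Positions stepped by 0.2 axis units from 0 at the lowest position of the nucleus to 4.4, giving 23 steps for 23 profiles, and these steps are called slice 1 to slice 23. The unit of the axis is not named, and which profile gave which slice is not stated. In all, 70.6% of the entries lay on a step (96920 windows), and these alone enter counts per slice. The other 29.4% lay between steps, 10.6% of them exactly midway. They enter measures of position, such as means, SDs and variances, but no counts per slice. Sequencing depth cannot be read from files without counts, and no counting interval for a position can be given.

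The slices of Cell17 differed widely in how much genome they held. Slice 15 held 15744 windows and slice 13 held 12771, together 29.4% of all windows on a step, where each of 23 equal slices would hold 4.35%. The 5 fullest slices held 50.9%, against 21.7% for equal slices. Slice 20 was the emptiest with 673 windows, and the fullest slice held 23.4 times as many. Thin slices stood beside full ones along the axis: slice 15 stood beside slice 16 with 963 windows, and slices 2 and 4, with 5011 and 3134, flanked slice 3 with 837. At the ends, slice 1 held 4926 windows and slice 23 held 2070. Both files showed the same profile, with a Pearson correlation of 0.972 over the 23 slices, which share the same libraries. Slice 15 had 6477 windows in file 0 and 9267 in file 1, whereas slice 23 had 1238 and 832.

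**Figure D1:**
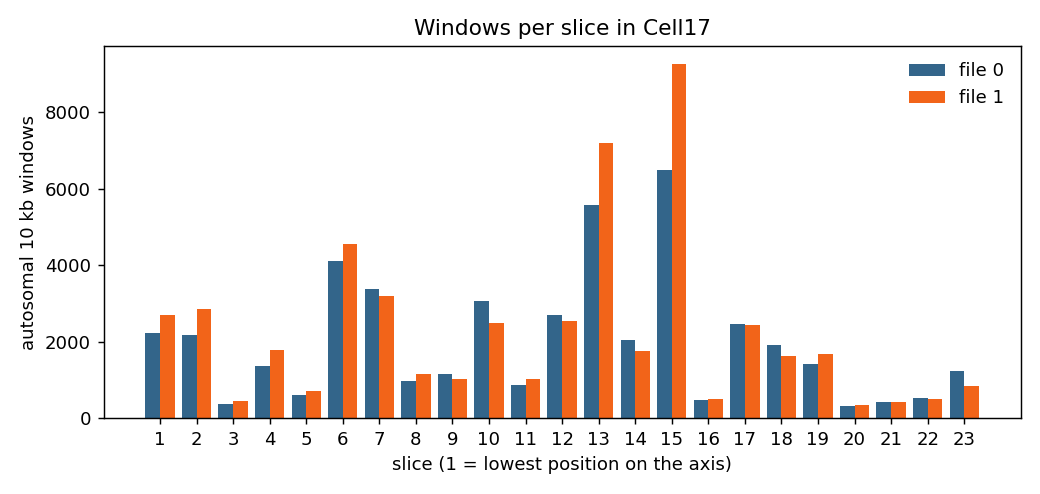
Autosomal 10 kb windows (y axis) placed in each of the 23 slices of Cell17 (x axis, slice 1 at the lowest position), with a bar for file 0 and a bar for file 1. Slices 13 and 15 are the fullest in both files and slices 3, 16, 20, 21 and 22 are the least filled.

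Every autosome was spread over the whole stack, and the centres of the autosomes were close to each other beside that spread. The mean position of all windows was 2.01 axis units, with an SD of 1.06 over windows. The means of the 19 autosomes ran from 1.63 to 2.40 axis units, a range of 0.774, which is 17.6% of the span from slice 1 to slice 23. The SD of positions within an autosome lay between 0.81 on chromosome 13 and 1.21 on chromosome 5. The lowest centre belonged to chromosome 5, at 1.60 axis units in file 0 and 1.66 in file 1. Chromosome 6 followed with 1.64 and 1.75, and chromosome 15 with 1.73 and 1.88. The highest centre belonged to chromosome 12, at 2.42 and 2.39 axis units. Below it came chromosome 4 with 2.52 and 2.18, chromosome 2 with 2.32 and 2.34, chromosome 3 with 2.26 and 2.35, and chromosome 1 with 2.20 and 2.23. The remaining 11 autosomes had means between 1.84 (chromosome 8) and 2.09 (chromosome 11) over both files, and the steps between neighbours in that order were under 0.072 axis units, the median difference between the files, except the last, from chromosome 16 (1.96) to chromosome 11.

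For most autosomes the files gave nearly the same centre. The median absolute difference between the file means was 0.072 axis units over the 19 autosomes, and 6 differed by more than 0.1. Chromosome 4 lay 0.34 axis units lower in file 1 than in file 0, chromosome 11 lay 0.22 lower, chromosome 16 lay 0.20 lower and chromosome 18 lay 0.17 lower. Chromosome 15 lay 0.15 higher in file 1, and chromosome 6 lay 0.11 higher. Chromosome 4 thus stood highest in file 0 and chromosome 12 in file 1, while chromosome 5 was the lowest in both.

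**Figure D2:**
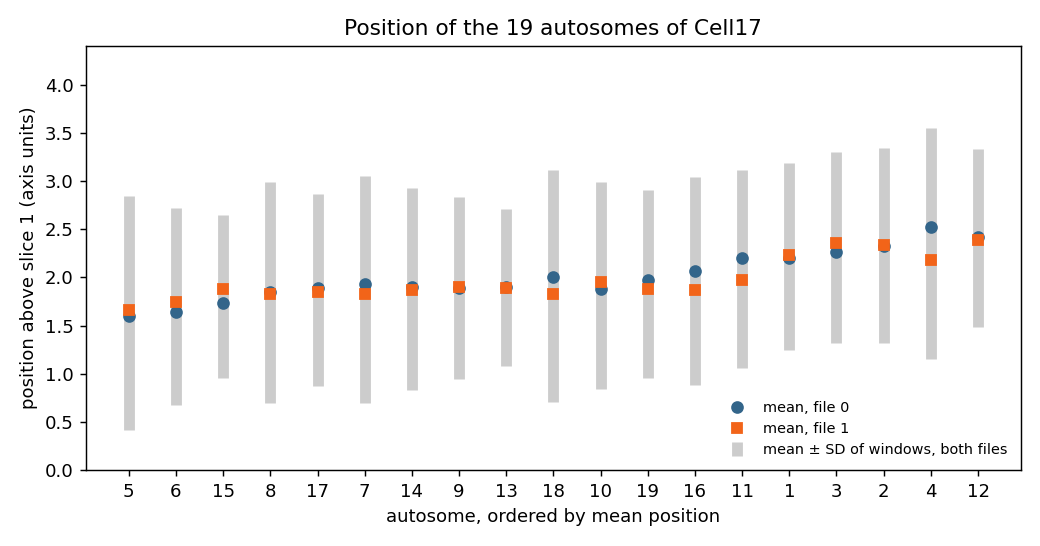
Mean position above slice 1 (y axis, axis units) of the 19 autosomes of Cell17 (x axis, ordered by the mean over both files), with circles for file 0, squares for file 1 and a grey bar for the mean ± SD over windows. The autosome means cover 0.774 axis units, and chromosome 4 shows the widest gap between files.

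The slices in which an autosome was concentrated gave more detail than its centre. For each of the 437 pairs of an autosome and a slice, the windows found were divided by the number expected from the size of the slice and the size of the autosome. In 23 of the 437 pairs (5.26%) an autosome held at least 2 times the expected windows, and in 50 pairs it held at most 0.5 times. The 23 pairs involved 16 autosomes and 13 slices. In 13 of them each file on its own was at 2 times or more, in 9 file 0 only, and in 1 file 1 only.

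The strongest concentration was chromosome 4 in slice 23, the upper end of the stack. It held 545 windows there, 4.79 times the expected number and 26.3% of the slice. In file 0 the slice contained 16.9% of the chromosome's windows and in file 1 3.62%, a gap of 13.3 percentage points that was the widest of all 437 pairs. The ratio was still above 2 in each file, at 6.26 and 2.22. Once windows listed in both files were left out, it was 5.51 in file 0 and 1.68 in file 1. At the lower end, chromosome 5 held 960 windows in slice 1, 3.65 times the expected number, with 20.5% of its windows in file 0 and 16.7% in file 1. Chromosome 8 was concentrated in the same slice, with a ratio of 2.27. The outermost slices thus each had a leading autosome, whose share of the slice was 26.3% for chromosome 4 in slice 23 and 19.5% for chromosome 5 in slice 1.

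In the lower part of the stack, chromosome 6 was concentrated in slices 6 and 7, and chromosomes 9 and 15 in slice 7. In slice 6 chromosome 9 held 1.87 times and chromosome 15 0.94 times the expected windows. Chromosome 15 held 1078 windows in slice 7, 3.16 times the expected number (25.7% of its windows in file 0 and 16.5% in file 1). Chromosome 9 reached 2.49 times in the same slice, with 16.1% and 17.6% of its windows. Chromosome 6 held 1456 windows in slice 6 and 1060 in slice 7, at 2.27 and 2.18 times, and these slices were its main place in file 0, with 23.9% and 19.5% of its windows. In file 1 they held 16.8% and 10.2%. Chromosome 11 was just under the threshold in slice 6, at 1.99 times: the slice held 22.3% of its windows in file 1 and 13.4% in file 0, while slice 7 held 0.32 times the expected number.

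Around the middle, slices 10 and 12 were rich in chromosomes 13 and 19. Chromosome 13 held 1044 windows in slice 10 and 711 in slice 12, 3.34 and 2.42 times the expected numbers, with both ratios above 2 in each file. Chromosome 19 reached 2.34 and 2.27 times in the same slices. Chromosome 15 joined them in slice 10 at 2.46 times, and chromosome 14 in slice 12 at 2.18 times. Slice 11, between them, held 1906 windows and was led by chromosome 7 at 2.19 times, not by chromosome 13. Chromosome 13 held 0.80 times the expected windows there, and chromosome 19 held 0.50 times.

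In the upper part, slices 14, 17 and 18 were rich in chromosomes 2, 3, 11, 12 and 16. Chromosome 12 reached 2.81 times in slice 18, with 13.6% of its windows in file 0 and 6.79% in file 1, and chromosomes 16 and 2 reached 2.34 and 2.18 times there. Chromosome 11 reached 2.40 times in slice 17, where file 0 held 17.2% of its windows and file 1 7.14%. Chromosome 3 reached 2.0 times in the same slice and chromosome 2 reached 2.17 times in slice 14. The same slice 18 was poor in chromosomes 15 and 13, with 0.17 and 0.23 times the expected windows. Those are the chromosomes that led slices 7 and 10.

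Chromosome 18 passed 2 times the expected windows in slices 2 and 20. It reached 2.79 times in slice 2, with 487 windows or 14.4% of its windows on a step. In the nearly empty slice 20 it reached 2.73 times, with 64 windows or 1.90%. Chromosome 7 led slice 3 with 91 windows at 2.48 times, also in a thin slice. Chromosomes 1, 10 and 17 reached 2 times in none of the 23 slices, and their highest ratios were 1.63 in slice 14, 1.70 in slice 4 and 1.97 in slice 20.

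**Figure D3:**
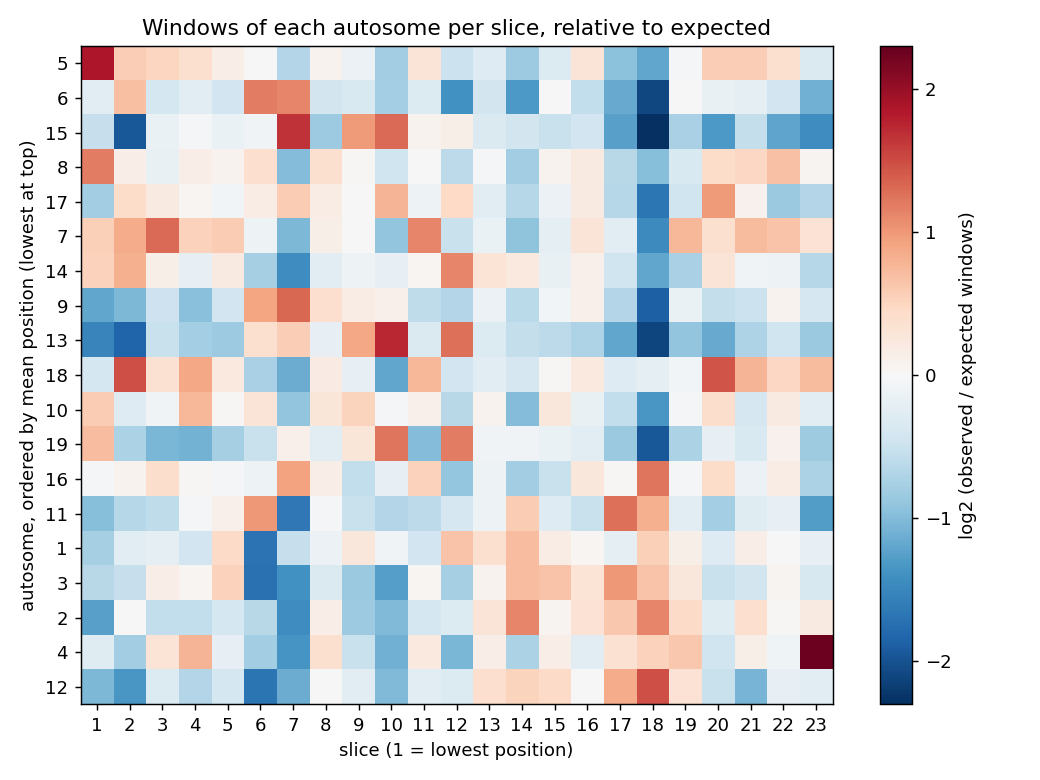
Log2 of observed over expected windows (colour) for each of the 19 autosomes (rows, ordered by mean position with the lowest at the top) in each of the 23 slices of Cell17 (columns), both files added. Red cells show a concentration, with chromosome 4 in slice 23 at 4.79 times and chromosome 5 in slice 1 at 3.65 times the expected windows.

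Some windows are listed in both files and so count in each. There were 24664 of them, 46.3% of which had the same position in both files, and those at different positions were a median of 0.263 axis units apart. With every such window left out, 19 of the 23 pairs stayed at 2 times or more, and 6 did so in each file. The lowest of the 23 ratios was then 1.61, for chromosome 7 in slice 11. Chromosome 3 in slice 17 (1.85), chromosome 7 in slice 3 (1.94) and chromosome 8 in slice 1 (1.97) also fell under 2.

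The 2 files placed an autosome in the same slices more than they placed different autosomes there. Overlap is the summed minimum of 2 sets of slice shares, 100% where the sets are identical. The same autosome in file 0 and file 1 overlapped by a median of 86.2%, from 76.3% for chromosome 11 to 93.6% for chromosome 1. The overlap with the other autosomes of the other file had a median of 72.7%, and the same autosome was higher in 19 of 19 cases. Without the windows listed in both files the medians were 84.1% and 75.3%, and 18 of 19 autosomes were higher. The exception was chromosome 11 with 72.3% against 72.4%.

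Among the 171 pairs of different autosomes in the same file, the overlap averaged 73.2% ± 7.03 (SD over pairs, n = 171) and ran from 54.1% to 87.6%. The most alike were chromosomes 3 and 12 (85.2% in file 0 and 89.9% in file 1), both high in the stack. Chromosomes 5 and 8 followed with 87.7% and 87.2%. Both were concentrated in slice 1, which was also the slice of their widest difference (18.5% and 11.6% of their windows). Next came chromosomes 8 and 10 at 87.4%, chromosomes 2 and 12 at 87.3%, which share slice 18, and chromosomes 5 and 7 at 86.3% (means of the files). The least alike pair was chromosomes 3 and 13, at 54.6% and 53.7%, and slice 10 made the widest difference between them. Chromosomes 4 and 13 overlapped by 56.1%, 12 and 13 by 56.8%, 3 and 15 by 57.4%, and 12 and 15 by 58.2%. All 5 of these pairs set chromosome 13 or 15 against chromosome 3, 4 or 12. The widest difference lay in slice 10 for the 3 pairs with chromosome 13 and in slice 7 for both pairs with chromosome 15. Over all pairs, the overlaps in file 0 and file 1 had a Spearman correlation of 0.591 (n = 171 pairs, which share autosomes and libraries). Overlap is not corrected for the yield of the slices. By the Pearson correlation of the log2 ratios to expected windows over the slices, chromosomes 5 and 8 ranked first (0.871). Chromosomes 13 and 15 came next (0.825), and chromosomes 6 and 12 last (-0.719).

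Of the 171 pairs, 13 shared at least 1 slice in which both autosomes reached 2 times the expected windows. Only chromosomes 13 and 19 shared more than 1 such slice, namely slices 10 and 12. Shared slices were slice 1 for chromosomes 5 and 8, slice 7 for 6, 9 and 15, and slice 10 for 13, 15 and 19. The others were slice 12 for 13, 14 and 19, slice 17 for 3 and 11, and slice 18 for 2, 12 and 16. Without the windows listed in both files, chromosome 8 in slice 1 (1.97) and chromosome 3 in slice 17 (1.85) fell under 2 times.

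**Figure D4:**
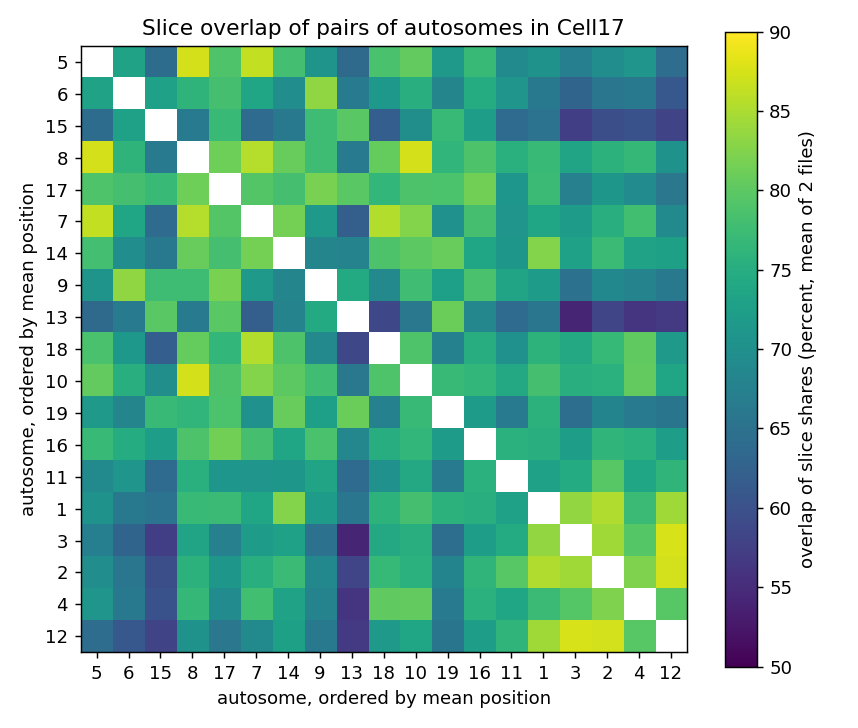
Overlap of slice shares (colour, percent, mean of the 2 files) for each pair of the 19 autosomes of Cell17 (rows and columns, ordered by mean position). The values run from 54.1% for chromosomes 3 and 13 to 87.6% for chromosomes 3 and 12.

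These pairs held varied ranks elsewhere. In the other 9 nuclei, the 5 most alike pairs of Cell17 were above the median overlap of their nucleus in between 3 and 5 nuclei each. The 5 least alike pairs were above the median in between 4 and 8. Chromosomes 12 and 13, among the least alike in Cell17, had the highest overlap of all 171 pairs in at least 1 other nucleus and were above the median in 8 of 9.

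Positions were also summarised by stretches of 10 Mb. The autosomes held 257 segments of 10 Mb, of which 251 had at least 100 windows, with a median of 538. Segment means ran from 1.38 to 2.69 axis units around a median of 1.97, and the file 0 and file 1 means had a Spearman correlation of 0.830 over segments, which share windows and libraries. Slice 13 or slice 15 was the fullest slice in 145 of the 251 segments (57.8%), the fullest slices of the nucleus. Relative to the yield, and over slices with at least 20 windows of the segment, 120 segments held a slice at 3 times the expected windows or more, and 22 held 1 at 5 times or more. The highest of several slices in a small segment varies more than that of a whole autosome, so these ratios are not set against those of autosomes.

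The lowest segments lay on chromosome 5. Its stretch from 90 to 100 Mb had a mean of 1.38 axis units, with 37.4% of its windows in slice 1 in file 0 and 32.4% in file 1. The stretches at 130 to 140, 50 to 60 and 0 to 10 Mb of the same chromosome had means of 1.47, 1.47 and 1.49, and slice 1 was the most overfilled slice, at 3 times or more, in 8 of its 15 segments. The fifth was the first 10 Mb of chromosome 10, at 1.5 axis units, where slice 1 held 12.5% of the windows in file 0 and 36.3% in file 1. The files also differed on parts of chromosome 5, where slice 1 held 33.8% and 24.6% of the windows at 130 to 140 Mb, and 20.3% and 4.19% at 20 to 30 Mb.

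The highest segments lay on chromosomes 4, 2 and 12. The stretch from 50 to 60 Mb of chromosome 4 had a mean of 2.69 axis units and held 13.5 times the expected windows in slice 23, with 40.4% of its windows there in file 0 and 10.0% in file 1. Its SD of 1.4 axis units was also the widest of all segments. Slice 23 was the most overfilled slice in 9 of the 16 segments of chromosome 4. In those 9 segments it held 10.2% to 40.4% of the windows in file 0, but 1.81% to 10.0% in file 1, so this extent was mainly that of file 0. From 130 to 140 Mb, chromosome 2 had a mean of 2.66 axis units and 8.92 times the expected windows in slice 18, with 29.7% in file 0 and 34.2% in file 1. The first 10 Mb of chromosome 12 reached 6.22 times in slice 18, with 24.2% and 21.4%.

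The 5 narrowest segments all belonged to chromosome 13. Its stretch from 30 to 40 Mb had the smallest SD of any segment, 0.70 axis units, around a mean of 1.86, and slice 10 held 51.4% of its windows in file 0 and 22.1% in file 1. Slice 10 was the most overfilled slice in 7 of the 12 segments of chromosome 13, counted with the minimum ratio used for chromosome 5 above. The stretch from 50 to 60 Mb departed from this, with slice 12 holding 32.7% and 31.9% of its windows. With the same minimum ratio, the segments of chromosome 15 divided mainly between slice 7 (5 of 11) and slice 10 (4 of 11). The stretch from 90 to 100 Mb of chromosome 15 held 43.9% of its windows in slice 7 in file 0 and 44.0% in file 1. Some segments showed a strong slice in 1 file mainly. From 10 to 20 Mb of chromosome 16, slice 18 held 34.5% in file 0 and 12.7% in file 1, and from 80 to 90 Mb of chromosome 2, slice 23 held 5.42% and 18.3%.

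Few autosomes were tilted along the axis. Each autosome was divided into 3 parts of equal length and the mean of the first part was subtracted from that of the last part. The last part of chromosome 9 lay 0.38 axis units above the first (0.42 in file 0 and 0.34 in file 1), and that of chromosome 10 by 0.36 (0.29 and 0.40). On chromosome 2 the difference was 0.20 (0.17 and 0.23). The other 16 autosomes had differences between -0.14 and 0.17 axis units. Mouse autosomes carry the centromere at the start of their coordinates. Windows of the first 10 Mb of located sequence were 1.30 times as frequent in slice 12 as windows in general and 0.63 times as frequent in slice 23. These were the highest and the lowest of the 23 slice ratios, and they were not adjusted for the mix of autosomes. Whether they reflect the place of the centromeres was not tested.

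Windows close together on a chromosome tended to lie in the same slice, and this decayed within a few megabases. Of adjacent 10 kb windows, 32.3% shared a slice in file 0 and 32.4% in file 1, against 9.65% and 9.97% from the slice shares of the chromosomes. The excess was 22.6 and 22.4 percentage points. At 0.1 Mb it was 8.51 and 5.75 points, at 1 Mb 2.95 and 1.76 points, and at 5 Mb 0.12 points in each file. Beyond 5 Mb it stayed between -0.70 and 0.84 points up to 50 Mb.

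**Figure D5:**
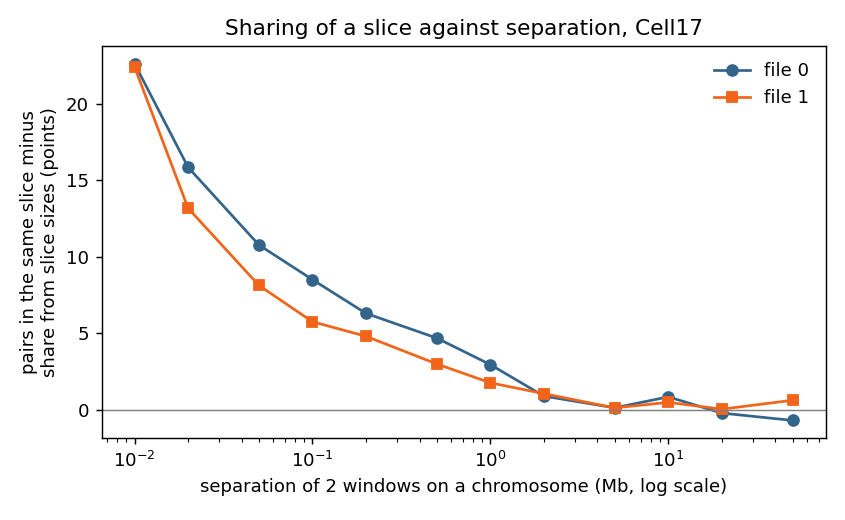
Percentage of window pairs in the same slice minus the percentage given by the slice shares of their chromosome (y axis, percentage points) against the separation of the windows (x axis, Mb, log scale), with circles for file 0 and squares for file 1 of Cell17. The excess falls from about 22.5 points at 0.01 Mb to 0.12 points at 5 Mb.

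Long runs of located windows in 1 slice were rare. Successive located windows of a file that lay in the same slice were joined into runs, across any windows not located in that file. A located window between steps ended a run. This gave 79224 runs, 85.8% of them a single window. Only 69 runs held 10 windows or more, 61 in file 0 and 8 in file 1. The longest held 31 windows of slice 10 at chr15:15010001-16660000 (mm10) in file 0. It was followed by 24 windows of slice 6 at chr9:16440001-17120000, 23 of slice 12 at chr13:5100001-6010000, 23 of slice 10 at chr19:15070001-15900000 and 19 of slice 7 at chr6:82400001-82820000. Of these 5, 4 fell in a slice in which their chromosome was concentrated, chromosome 9 in slice 6 being the exception. Of the 69 runs, 21 lay in slice 7, 16 in slice 6 and 14 in slice 10, and only 2 in the fullest slice, slice 15. File 0 held more of these runs than file 1 in all 10 nuclei.

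Single loci were placed by few windows, so their positions describe these windows only. Of 15 loci of pluripotency genes, 11 had at least 1 located window, 9 in file 0 and 5 in file 1. Pou5f1, which encodes the core pluripotency factor Oct4 (chr17:35506032-35510777), had 1 window, in slice 12 of file 0. Sox2, the partner of Oct4 (chr3:34649995-34652461), had 1 window in slice 15. Lin28a, an RNA-binding repressor of let-7 microRNAs (chr4:134003330-134019196), was in slice 19 in both files. Prdm14, a repressor that guards the naive state, had windows in slices 15 and 19 of file 0. Esrrb, an orphan nuclear receptor, spans 17 windows and had 4 located in file 0 and 3 in file 1, with slice 13 present in each. Myc (chr15:61985341-61990361) had windows in slices 7 and 8 of file 0, the first being the slice richest in chromosome 15. Nanog had 2 windows in file 1, both between slices, at 0.31 and 1.14 axis units. Klf4, Zfp42, Utf1 and Fgf4 had none. Of the 10 lineage loci, 5 were located, among them Gata4 with 6 windows in file 0, from slice 6 to slice 19 on the steps.

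All 11 imprinted loci, at which only 1 parental copy of a gene is active, had a located window. They spanned up to 48 windows (Snrpn), against up to 17 for pluripotency loci (Esrrb) and 9 for lineage loci (Gata4). Of all autosomal windows, file 0 located 26.8% and file 1 29.0%. The counts of located loci were not set against loci of the same size, so the lists are not compared. Igf2r, the receptor that clears Igf2, had windows in slices 13, 15 and 19 of file 0 and in slices 15 and 19 of file 1. Snrpn had 14 windows in each file, spread from slice 1 to slice 20 in file 0 and to slice 22 in file 1. Gnas was in slice 23 and Grb10 in slice 17 of file 0, the latter a slice in which chromosome 11 was concentrated.

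Larger gene clusters had more windows. Of the 4 homeobox clusters that pattern the body axis, Hoxc had 2 of its 4 windows on the steps of file 0 in slice 7. That slice is rich in its chromosome 15, and the other windows were in slices 6 and 15. In file 1 Hoxc had 7 located windows, of which 2 were on the steps, 1 in slice 7 and 1 in slice 9. Hoxb had 3 of its 6 windows on the steps of file 1 in slice 6, a slice full of chromosome 11 in that file, and 6 windows in 6 different slices in file 0. Hoxa, on chromosome 6, was in slices 2, 3, 15 and 21 of file 0 and slice 15 of file 1. Hoxd, on chromosome 2, was in slices 1, 13, 16 and 20 of file 0 and slice 13 of file 1. In none of these slices did the chromosome of the cluster reach 2 times the expected windows. The histone gene span between H2bc13 and H2bc1 on chromosome 13 (chr13:21715711-23934156) had 23 of its 65 windows on the steps of file 1 in slice 10, and 1 of 20 in file 0. The major histocompatibility complex, which encodes antigen-presenting proteins, was taken as the span of H2-K1, H2-D1, H2-T23 and H2-M3 (chr17:33996012-37274485). There, slice 12 held 25 of 81 windows on the steps of file 1 and 9 of 64 in file 0. In file 0 slice 13 held 10. The largest cluster of olfactory receptor genes, 222 genes at chr2:85330967-90401674, had 143 located windows in file 1 and 150 in file 0. On the steps, 28 of 65 lay in slice 23 of file 1 and 8 of 86 in file 0, where slice 13 led with 20. Counts for the other olfactory receptor clusters are likewise of windows on the steps. The olfactory receptor clusters of chromosomes 7 and 19 had slice 13 as their fullest slice in file 0 (10 of 42 and 24 of 67 windows), and in file 1 it held 9 of 54 and 9 of 45. For chromosome 19, slice 15 also held 9 in file 1. The clusters of chromosomes 9 and 10 were fullest in slices 10 and 7 in file 0 (8 of 31 and 3 of 8). In file 1 both were fullest in slice 13 (12 of 53 and 8 of 41). Slice 13 held 13.2% of all windows on a step. The fullest slice of a cluster was thus the same in both files in some cases and not in others.

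Gene content differed little between slices. Windows on the steps held the midpoints of 8.61 protein-coding genes per 100 windows over the nucleus. Against the number expected from the mix of autosomes in each slice, slice 6 held 1.12 times as many genes (exact 95% Poisson interval 1.05 to 1.20), slice 19 1.15 times (1.02 to 1.28) and slice 21 1.28 times (1.03 to 1.56). Slice 1 held 0.88 times as many (0.79 to 0.97). The intervals of the other 19 slices included 1. These intervals cover counting error only, were not adjusted over the 23 slices, and treat neighbouring genes, and a gene located in both files, as independent.

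Finally, Cell17 was compared with the other 9 nuclei, which were cut into 7 to 16 profiles each. With 1 nucleus against 9 the exact permutation test cannot give a p under 0.1, so none of the 10 measures compared could pass a threshold of 0.05. The median autosome of Cell17 held 17.8% of its windows in its fullest slice, the lowest of the 10 nuclei, against 34.3% ± 13.5 (SD, n = 9) in the others (exact permutation p = 0.2, adjusted p = 0.75). Cell17 was cut into the most profiles, and that number cannot be told apart from the nucleus here. The share of pairs of autosome and slice at 2 times the expected windows was 5.26% in Cell17 and 2.82% ± 3.69 in the others (exact permutation p = 0.4, adjusted p = 0.75), the second highest after Cell39 with 11.96%. The overlap of different autosomes was 73.2% against 79.5% ± 6.47 (exact permutation p = 0.6, adjusted p = 0.75). Adjacent windows shared a slice by 22.5 percentage points more than the slice shares gave, against 29.5 ± 14.6 points (exact permutation p = 0.7, adjusted p = 0.78).

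Differences between autosomes accounted for 5.26% of the variance of window positions in Cell17, and 4.55% ± 4.06 in the other nuclei (SD, n = 9, exact permutation p = 0.8, adjusted p = 0.8). Segments within autosomes added 1.99%, against 5.56% ± 2.94 (exact permutation p = 0.5, adjusted p = 0.75). The absolute difference between the first and last parts of an autosome was 0.099 SDs of window positions in the median autosome, against 0.18 ± 0.069 (exact permutation p = 0.4, adjusted p = 0.75). The spread of an autosome over slices, relative to all autosomes, was 90.6% against 94.3% ± 6.58 (exact permutation p = 0.6, adjusted p = 0.75). The evenness of the slices was 71.8% against 68.1% ± 17.1 (exact permutation p = 0.6, adjusted p = 0.75). The same autosome in both files overlapped by 14.4 points more than different autosomes did, against 10.9 ± 4.4 points (exact permutation p = 0.5, adjusted p = 0.75). The range of autosome means, 0.774 axis units, was the widest of the 10 nuclei, while as a share of the sampled span its 17.6% was below Cell39 (26.7%), Cell26 (24.7%) and Cell19 (17.8%).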

How the data were processed

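The labels' protocols give whole genome amplification of the DNA of each nuclear profile, Vazyme libraries and sequencing on a HiSeq X. Trim Galore 0.6.4, Bowtie2 2.3.5, Picard and the build mm10 are listed in the submitters' processing notes. How reads became positions is not given in the sources used here. The authors deposited, per the file headers, chromosome, start, end and position of each 10 kb window, the position being in another unit than counts, with no name.

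Positions within 0.0001 of a multiple of 0.2 above the lowest one were assigned to that slice. Counts, shares, overlaps and mean positions were computed with Python 3.11.15, numpy and pandas, and tested on simulated data. Profiles are serial slices and not replicates, so the nucleus is the unit of the 2-sided exact permutation tests, with Benjamini-Hochberg adjustment over 10 results. Evenness and spread are exponentials of the Shannon entropy of slice shares. Segments with at least 100 windows and pairs with at least 50 windows were ranked for naming: the 10 highest ratios, the 5 extremes of overlaps, means and SDs, the 5 longest runs and listed loci. Other segments and ratios named were chosen after their values were seen. Genes, counted by the window of their midpoint, came from a RefSeq table of GRCm38.p6, the assembly behind mm10. Members and lists were chosen with earlier results of these data known. Controls and sex chromosomes entered no comparison.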

Additional observations from a re-analysis of the deposited data

Results flagged for a closer look

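Among the 10 nuclei, Cell39 stood apart in the share of pairs of autosome and slice with at least 2 times the expected windows, at 11.96% against 5.26% in Cell17, the next highest. Chance sets apart about 1 in 20 such groups for a single measure, and all 10 measures were screened, so a flag among them is less unusual. Cell39 also had the fewest located autosomal windows (52534), with 64.3% of those on a step in its fullest slice. Windows of the sex chromosomes were left out of the comparisons: Cell17 had 8025 located windows on chromosome X and 2647 on chromosome Y, both files added, with no control values used here to set beside them.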

How the results depend on the processing

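Of 167 recomputed differences between Cell17 and the other nuclei, 163 kept their direction. No setting could give an exact permutation p under 0.1, so the p-values cannot show whether a setting matters. The evenness of the slices, 3.73 points higher in Cell17, was -3.86 with 1 Mb bins and -5.47 against the 3 other B16F nuclei. Leaving out each other nucleus in turn gave -0.92 to 7.0, the lowest without Cell39. The variance between autosomes, 0.71 points higher, was -0.58 without the outermost slices. The cause was not tested. A file alone gives no overlap of files, and merged slices no change in positions, so these were not computed. Among 133 recomputed autosome positions relative to the nucleus, 4 changed sign or reached 0, on chromosomes 11, 14 and 16. Of 58 recomputed values of the 10 highest ratios (settings chosen after seeing the data), 4 fell under 2: chromosome 18 in slice 20 had no 1 Mb bin, chromosome 7 in slice 3 was at 1.91 with windows moved to the nearest slice and 1.94 without shared windows, and chromosome 15 in slice 10 was at 1.78 in file 1. No paired analysis was possible because Cell17 is a single nucleus and replicate numbers only follow accession order. The files hold no read depth, which limits all positions of single loci.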
